A study of Homo sapiens with 24 samples.

Results

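The DHRS genes encode members of the short-chain dehydrogenase/reductase superfamily, and 9 of them (DHRS1, DHRS2, DHRS3, DHRS4, DHRS7, DHRS9, DHRS11, DHRS12 and DHRS13) are described here in HCT-116 colorectal cancer cells exposed to butyrate. Members were the non-control probes carrying one of these gene names on the array, 12 probes among 34127, of which 11 passed the filter on dim probes, among 18984 that did so for 15163 genes. The set was chosen by the DHRS2 signal in NaB and Ctl, which was far higher with butyrate. The values of DHRS2 are therefore given as a description without a test, and the counts cover the 8 other members. The cells were a single selected clone, stably transfected with a dominant negative form of the Wnt effector Tcf4 (DN-Tcf4) under a doxycycline-inducible promoter, so every group carried the transgene. The treatments were none (Ctl), 5 mM sodium butyrate (NaB), 4 µg/ml doxycycline (Doxy) and both agents (DoxyNaB). Cells were harvested after 17.5 hr with or without butyrate. By the study's methods doxycycline was given first, for a time not stated. Each treatment was run in 6 experiments, giving 24 one-colour arrays. By the study's account, DN-Tcf4 was low with doxycycline alone and high with both agents.

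Short-chain dehydrogenases/reductases are enzymes that use NAD(H) or NADP(H), bound in a Rossmann fold, to interconvert alcohols and carbonyls. Several DHRS proteins act on retinoids: DHRS3 and DHRS4 reduce retinal to retinol, whereas DHRS9 oxidises retinol towards retinal, the precursor of retinoic acid. DHRS11, DHRS7 and DHRS1 have reductase activity on steroids among other carbonyl compounds. Butyrate, a product of fibre fermentation in the colon, inhibits histone deacetylases. Wnt target genes are transcribed by complexes of beta-catenin and Tcf factors, and DN-Tcf4 competes with these for their binding sites. The study used doxycycline to ask which responses to butyrate depend on Wnt signaling. Since every group carried the transgene, effects of doxycycline itself and of DN-Tcf4 cannot be told apart.

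The sequences just upstream of the members' start sites are shown first, since those of DHRS2 and DHRS9 stood apart from the others. RefSeq sequence (GRCh38.p14) was available for 250 bases before the outermost annotated start of 8 members, and not for DHRS7. More than 1 start was listed for DHRS9 (4), DHRS3 and DHRS12 (3 each) and DHRS1 (2), and only the outermost was examined. Which start these cells use was not tested. The windows of DHRS2 and DHRS9 contained 0 CpG dinucleotides, whereas those of the other 6 contained 19 to 29, against a median of 10 over 24884 such windows. Their GC content was 43.2% for DHRS2 and 39.2% for DHRS9, against 65.2% to 74.8% in the other 6. Motifs were searched on both strands, and the core promoter element TATAAA was present in DHRS2, 29 bases before the start, and in DHRS9, 114 and 32 bases before it, whereas 11.4% of all windows held it. GGGCGG (GC box) was present in DHRS1, DHRS3, DHRS4, DHRS11 and DHRS12 and in 41.7% of all windows. CCAAT was found in 33.4% of all windows, CACGTG in 6.44%, the Tcf motif CTTTGAT in 2.33% and the AP-1 motif TGANTCA in 6.67%, and each was found in 0 of the 8 members. Matches of different motifs did not overlap, whereas the DHRS11 matches of GGGCGG at 88 and 83 bases before the start overlapped each other. Shown 5′ to 3′ on the gene's strand, with motif matches in capitals, are the windows of DHRS2 and DHRS9, which lack CpG, and those of DHRS4 and DHRS3, a member with a probe that rose and a member that fell.

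DHRS2, chr14:23629865-23630114, plus strand: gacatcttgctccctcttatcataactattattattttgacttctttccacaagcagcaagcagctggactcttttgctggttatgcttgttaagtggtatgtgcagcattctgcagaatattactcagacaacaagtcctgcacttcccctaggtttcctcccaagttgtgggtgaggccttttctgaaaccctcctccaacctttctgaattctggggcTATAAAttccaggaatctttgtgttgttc

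DHRS9, chr2:169066827-169067076, plus strand: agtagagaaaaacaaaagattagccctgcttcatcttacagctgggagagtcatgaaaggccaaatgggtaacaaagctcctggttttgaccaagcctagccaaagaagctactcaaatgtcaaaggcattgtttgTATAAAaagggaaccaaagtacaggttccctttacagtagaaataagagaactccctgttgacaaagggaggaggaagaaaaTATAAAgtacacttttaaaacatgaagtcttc

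DHRS4, chr14:23953520-23953769, plus strand: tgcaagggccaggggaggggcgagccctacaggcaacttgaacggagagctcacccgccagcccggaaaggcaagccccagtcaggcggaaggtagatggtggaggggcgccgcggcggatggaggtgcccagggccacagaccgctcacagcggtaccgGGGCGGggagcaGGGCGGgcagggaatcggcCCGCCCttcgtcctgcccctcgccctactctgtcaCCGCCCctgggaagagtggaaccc

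DHRS3, chr1:12618211-12618460, minus strand: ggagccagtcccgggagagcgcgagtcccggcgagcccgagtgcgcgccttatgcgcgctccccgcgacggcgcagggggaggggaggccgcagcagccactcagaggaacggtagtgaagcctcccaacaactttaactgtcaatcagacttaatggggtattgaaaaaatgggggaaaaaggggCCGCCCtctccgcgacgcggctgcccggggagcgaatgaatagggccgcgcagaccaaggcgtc

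Windows of the kind seen in DHRS2 and DHRS9, with TATAAA and no CpG, were few. They made up 494 of the 24884, or 1.985%. Among the 9161 tested genes with a window, 24 had such a window, DHRS2 and DHRS9 included. Of the 22 others, 8 (36.4%) were higher and 2 (9.09%) lower in NaB than in Ctl by the threshold used throughout. That threshold was a fold above 2 with a Benjamini-Hochberg adjusted p below 0.01 in limma. Over all 9161 genes, 19.1% were higher and 12.4% lower. TATAAA alone marked 544 genes, 30.1% of them higher and 12.1% lower. The kind of window was defined from DHRS2 and DHRS9. These shares were examined after the values of the members had been seen, and are given as a description without a test. A gene dim without butyrate could enter only through its butyrate arrays, as DHRS9 did, which can raise the share called higher.

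Signal strength varied between experiments. Levels are log2 signals from which the array's own 75th percentile (also log2) was subtracted, so that 0 equals that percentile. The percentile lay between 380.2 and 1323 signal units. Between 78.4% and 88.1% of spots were well above background in experiments 2 to 4, and between 52.7% and 62.6% in the others. The negative controls gave 48.4 to 248.9 units, the highest being the DoxyNaB array of experiment 2 and the NaB array of experiment 3. Of the transgene's parent gene, TCF7L2, 2 of 3 tested probes were higher in DoxyNaB than in NaB, by 2.96 and 4.46 on the log2 scale, and the change of the third was -1.25. AXIN2, a Wnt target, was 1.19 higher in NaB than in Ctl, and its DoxyNaB/NaB change was -2.53. The epithelial markers EPCAM, CDH1, KRT8, KRT18 and CDX2 were well above background on all 24 arrays, whereas KRT20 was so on 13, VIL1 on 5 and CDH17 on 2. Among markers of other cell types, COL3A1 was above background on 0 arrays, CD3E on 11, ALB on 12, PECAM1 on 13, PTPRC on 15, CDH5 on 22 and COL1A1 on 24. Of the 5 tested epithelial markers EPCAM fell in NaB/Ctl (-1.45), and CDH1 (0.99), KRT8 (0.63), KRT18 (0.12) and CDX2 (-0.67) stayed short of 2-fold, with a median of 0.12. Of the 2 tested markers of other cell types COL1A1 rose (1.09) and CDH5 was 0.45. Their part in the values below was not tested. Lower RNA per cell and a smaller number of expressing cells cannot be told apart in these bulk samples.

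DHRS2, DHRS9 and the DHRS4 probe of highest signal were higher with butyrate, DHRS3 was lower, and the remaining members moved by less than 2-fold. Of the 8 members other than DHRS2, 3 passed the threshold in NaB/Ctl, where 32.4% of all genes tested did so: DHRS4 and DHRS9 were higher (as were 21% of all genes) and DHRS3 fell (11.5% were lower). The same members passed in the same directions in DoxyNaB/Doxy, where the share of all genes was 31.2%, with 18.7% higher and 12.5% lower. DHRS9 entered the test only through its butyrate arrays, and the DHRS4 probe was picked by a mean level that the butyrate arrays raised, so these calls are no support for a change of the family, and DHRS3 is the called member that rests on neither choice. In NaB/Ctl the count was 2 with a filter on all 24 arrays (DHRS3 and DHRS4) and 2 with the DHRS4 probe of highest Ctl level (DHRS3 and DHRS9). At an adjusted p below 0.01 with any fold, 8 of 8 passed in NaB/Ctl (69.6% of all genes) and 7 of 8 in DoxyNaB/Doxy (68.4%). The NaB and Ctl arrays did not overlap in 6 of the 8, and overlapped in DHRS1 and DHRS12, with a share of 45.3% non-overlapping over all genes. The Doxy and DoxyNaB arrays likewise did not overlap in 6 of the 8 (43.4% of all genes). The median change of the 8 members was -0.08 in NaB/Ctl and -0.06 in DoxyNaB/Doxy, and that of all genes was 0.17 and 0.11.

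**Figure D1:**
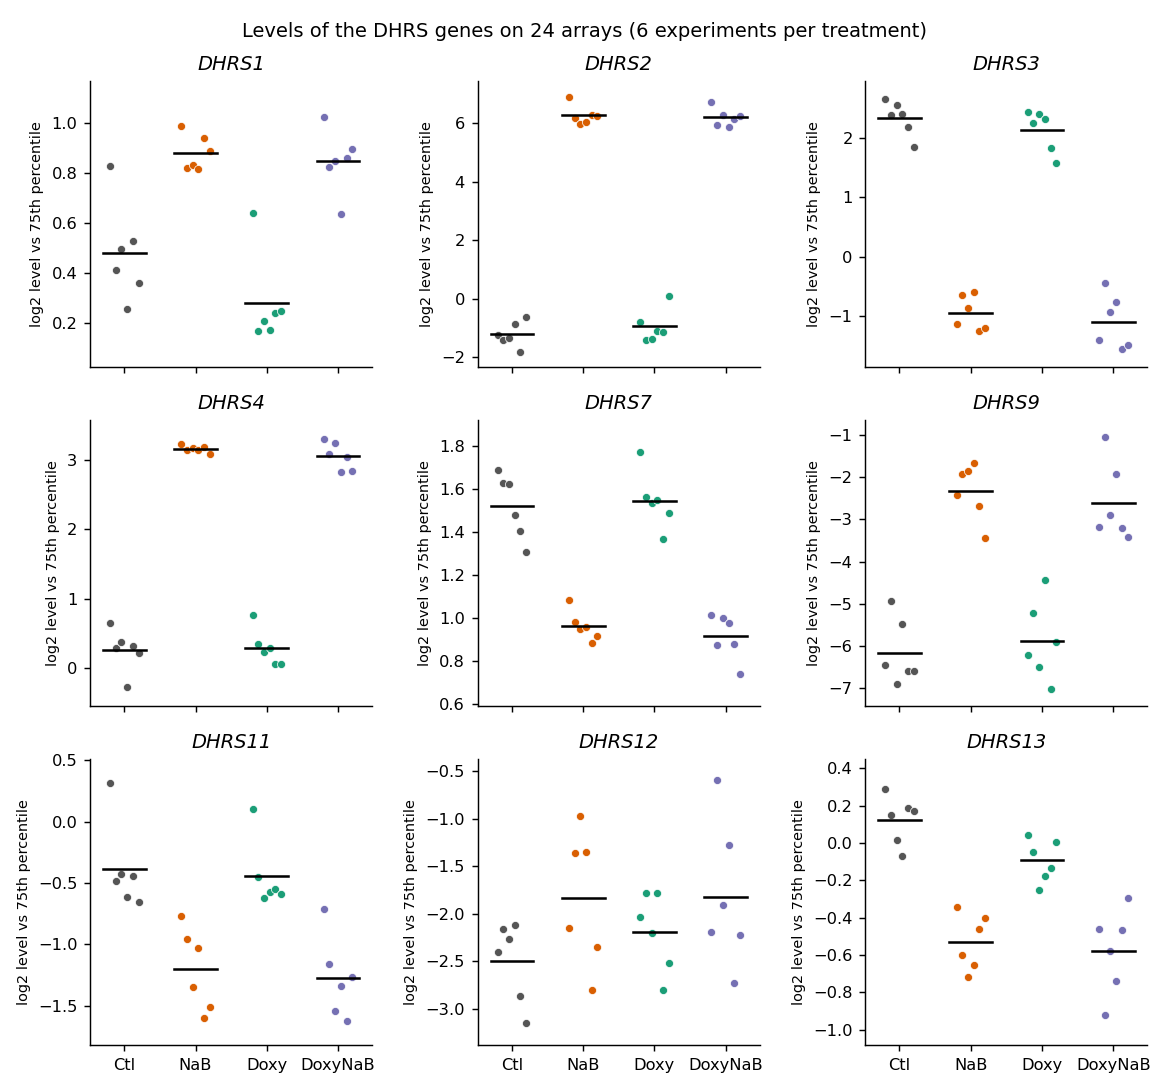
Level of each member on every array, as log2 signal minus the array's 75th percentile, by treatment (Ctl, NaB, Doxy, DoxyNaB), with points for the 6 experiments and bars for the mean. DHRS2 sat between -1.81 and 0.10 without butyrate and between 5.86 and 6.90 with it, whereas DHRS3 sat between 1.57 and 2.64 without and between -1.54 and -0.43 with it.

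DHRS2, a dehydrogenase reported in mitochondria and the nucleus, had the largest difference of the family. Its levels in Ctl were -1.81 at the lowest, -1.29 at the median and -0.61 at the highest. In NaB they were 5.96, 6.21 and 6.90. Every NaB array was therefore above every Ctl array by a wide margin, and the groups were far from overlapping. In Doxy the levels were -1.42, -1.13 and 0.10. In DoxyNaB they were 5.86, 6.20 and 6.73. The separation seen without doxycycline was thus present with it as well. The NaB/Ctl difference was 7.48 ± 0.56 (SD over 6 experiments, as for each ± value on changes), ranging from 6.86 to 8.14 among experiments, which corresponds to 178.8-fold. The DoxyNaB/Doxy difference was 7.15 ± 0.54, or 142.5-fold, with experiments between 6.15 and 7.65. DHRS2 ranked 2 of 15163 genes from the highest in NaB/Ctl and 3 in DoxyNaB/Doxy. These values chose the set and carry no test. The DHRS2 probe was well above background on all 24 arrays and lay at chr14:23184340-23184400 on the plus strand of hg18, the build of all probe positions given here.

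DHRS3, which reduces all-trans-retinal to retinol, fell with butyrate. Its Ctl levels were 1.84, 2.39 and 2.64 (lowest, median and highest), and its NaB levels were -1.24, -0.99 and -0.58. Its Doxy levels were 1.57, 2.27 and 2.43, and its DoxyNaB levels were -1.54, -1.16 and -0.43. The arrays with butyrate lay below all arrays without it, whether or not doxycycline was present. The change was -3.27 ± 0.31 in NaB/Ctl (9.67-fold lower, limma adjusted p = 9.34e-14) and -3.21 ± 0.39 in DoxyNaB/Doxy (9.27-fold lower, adjusted p = 1.09e-13), lower in 6 of 6 experiments each time. DHRS3 was 27 from the lowest of 15163 genes in NaB/Ctl and 35 in DoxyNaB/Doxy. Its probe lay at chr1:12550697-12550756 on the minus strand.

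DHRS9, which oxidises retinol and also hydroxysteroids, was higher with butyrate, from levels close to background. In Ctl it stood at -6.91, -6.51 and -4.94, with 2 of 6 arrays well above background. In NaB it stood at -3.44, -2.18 and -1.67, with 6 of 6. The groups did not overlap. In Doxy the levels were -7.02, -6.05 and -4.43, again with 2 of 6 arrays well above background, and in DoxyNaB they were -3.42, -3.03 and -1.04 with 6 of 6. The change was 3.83 ± 0.73 in NaB/Ctl and 3.27 ± 0.71 in DoxyNaB/Doxy. The probe passed the filter through its butyrate arrays alone, so the p given here is that of a fit with no filter on dim probes, 1.47e-09 after adjustment in NaB/Ctl and 1.14e-08 in DoxyNaB/Doxy. The size of the change is uncertain, being set against arrays mostly not above background. It was higher in 6 of 6 experiments in both comparisons. The size of the change differed with the background correction. With normexp it was 1.08 in NaB/Ctl, which no longer passed the threshold (adjusted p = 0.0130), and 1.36 in DoxyNaB/Doxy, which did (adjusted p = 0.00245). The DHRS9 probe lay at chr2:169660621-169660680.

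DHRS4, a peroxisomal NADPH-dependent reductase of retinal and other carbonyls, was measured by 3 probes that moved in opposite directions. The probe of highest mean signal over all arrays, A_33_P3383422, represented the gene, a choice that its butyrate arrays decided: its mean in Ctl was 0.26, against 1.37 for A_33_P3383431 and 0.84 for A_23_P162982. Its levels were -0.27, 0.30 and 0.64 in Ctl, and 3.09, 3.16 and 3.24 in NaB. They were 0.05, 0.25 and 0.76 in Doxy, and 2.82, 3.06 and 3.30 in DoxyNaB. The NaB arrays were tightly grouped and lay far above the arrays without butyrate. The change of this probe was 2.91 ± 0.27 in NaB/Ctl (7.51-fold, adjusted p = 1.69e-14) and 2.77 ± 0.21 in DoxyNaB/Doxy (6.82-fold, adjusted p = 2.68e-14).

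The other DHRS4 probes were lower with butyrate. A_33_P3383431 stood at 0.98, 1.35 and 1.80 in Ctl and at 0.05, 0.31 and 0.98 in NaB. Its change was -0.96 ± 0.19 in NaB/Ctl (adjusted p = 1.02e-08, short of 2-fold) and -1.01 ± 0.22 in DoxyNaB/Doxy (2.01-fold lower, adjusted p = 5.81e-09). A_23_P162982 stood at 0.44, 0.80 and 1.35 in Ctl and at -0.36, -0.18 and 0.13 in NaB. Its groups did not overlap, and its change was -0.97 ± 0.28 in NaB/Ctl and -0.99 ± 0.23 in DoxyNaB/Doxy, both short of 2-fold. The change of A_33_P3383422 exceeded that of A_33_P3383431 by 3.87 ± 0.26 and that of A_23_P162982 by 3.87 ± 0.22 over the 6 experiments in NaB/Ctl. Averaging the probes gave 0.33 in NaB/Ctl and 0.26 in DoxyNaB/Doxy, which did not pass the threshold. The rise assigned to DHRS4 is therefore that of 1 probe of 3. Probes of DHRS4L2 and DHRS4L1 that also list a DHRS4 accession were lower too, so that 1 of the 5 probes listing DHRS4 rose.

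The 60-base sequences of the DHRS4 probes are given below. The rising probe shared at most 5 consecutive bases with A_33_P3383431 and 6 with A_23_P162982. The tested DHRS4L2 probe, which was lower, shared as few with them (5 and 6), as did that of DHRS4L1 (5 and 5). Shared sequence therefore does not separate the rising probe from all those that were lower. The stretch of 32 bases that the last probes share is in capitals, and the spliced target of A_23_P162982 spans 5818 bases of genome.

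A_33_P3383422, chr14:23494201-23494260, plus strand: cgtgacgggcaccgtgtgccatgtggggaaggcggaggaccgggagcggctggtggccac

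A_33_P3383431, chr14:23498978-23499037, plus strand: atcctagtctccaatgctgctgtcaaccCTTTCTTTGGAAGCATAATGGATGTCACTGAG

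A_23_P162982, chr14:23499006-23504823, plus strand: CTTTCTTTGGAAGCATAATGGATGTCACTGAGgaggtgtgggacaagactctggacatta

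The rising probe began 4.8 kb before the others. Its reverse complement was present in the RefSeq window around the start of DHRS4-AS1, a noncoding RNA on the opposite strand, 40 bases before that start and 1383 bases into DHRS4 (GRCh38.p14, chr14:23955152-23955211). The probes of DHRS4-AS1 itself changed by -0.10 ± 0.22 (A_32_P118250, adjusted p = 0.277) and by 0.22 ± 0.37 (A_33_P3403459, adjusted p = 0.0806) in NaB/Ctl, and by -0.19 and 0.01 in DoxyNaB/Doxy. DHRS4L2 and DHRS4L1, near-identical copies of DHRS4 whose transcripts its probes may also bind, changed by -0.84 ± 0.12 and -0.91 ± 0.19 in NaB/Ctl, short of 2-fold. Another DHRS4L1 probe, A_33_P3359368, lists no DHRS4 accession and was too dim to be tested, with NaB/Ctl differences from -1.68 to 4.03 among experiments. The rising probe shared at most 6 consecutive bases with the DHRS2 probe, and at most 24 of 60 bases in any ungapped alignment. Which transcript A_33_P3383422 detects was not tested.

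**Figure D2:**
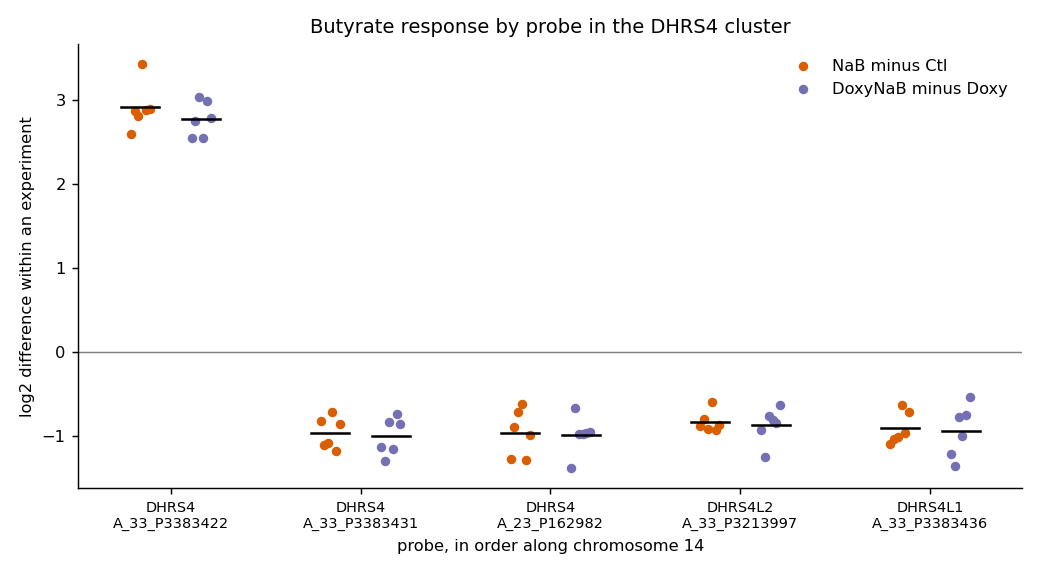
Change with butyrate in each of the 6 experiments (log2) for the 3 DHRS4 probes and the tested probe of DHRS4L2 and of DHRS4L1, without doxycycline (NaB/Ctl) and with it (DoxyNaB/Doxy), with lines at the mean. A_33_P3383422 lay between 2.54 and 3.42, and the other probes lay below 0.

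DHRS7, a reductase of the endoplasmic reticulum, was lower with butyrate by less than 2-fold. Its levels were 1.31, 1.55 and 1.69 in Ctl and 0.89, 0.95 and 1.09 in NaB, without overlap. The change was -0.56 ± 0.10 in NaB/Ctl (adjusted p = 1.92e-08) and -0.63 ± 0.11 in DoxyNaB/Doxy (adjusted p = 3.83e-09). Its probe was spotted 10 times on each array, and these spots were averaged.

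DHRS11, a keto-reductase of steroids, stood at -0.65, -0.47 and 0.31 in Ctl and at -1.60, -1.19 and -0.77 in NaB. The groups did not overlap, although the Ctl array of experiment 1 was well above the others. The change was -0.82 ± 0.31 in NaB/Ctl (adjusted p = 2.28e-07) and -0.83 ± 0.15 in DoxyNaB/Doxy (adjusted p = 1.99e-07), short of 2-fold, and with quantile normalization it was -1.11 and -1.19 and passed the threshold. DHRS1, which reduces steroids and xenobiotics, stood at 0.26, 0.45 and 0.83 in Ctl and at 0.81, 0.86 and 0.99 in NaB, so that the groups overlapped. Its change was 0.40 ± 0.14 in NaB/Ctl (adjusted p = 4.54e-06) and 0.57 ± 0.12 in DoxyNaB/Doxy (adjusted p = 5.11e-08).

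DHRS13 stood at -0.07, 0.16 and 0.29 in Ctl and at -0.72, -0.53 and -0.34 in NaB. Its NaB/Ctl change of -0.65 had the smallest spread of the family, 0.07 (adjusted p = 9.03e-08), and its DoxyNaB/Doxy change was -0.48 ± 0.22 (adjusted p = 4.26e-06). The groups were apart in both comparisons, by less than 2-fold. DHRS12 stood at -3.16, -2.34 and -2.12 in Ctl and at -2.81, -1.76 and -0.97 in NaB, with clear overlap. Its change was 0.66 ± 0.44 in NaB/Ctl (adjusted p = 0.00276) and 0.37 ± 0.46 in DoxyNaB/Doxy (adjusted p = 0.0724, higher in 5 of 6 experiments). A further DHRS12 probe, A_33_P3342633, was bright enough on 16 of 24 arrays only, did not pass the filter and was not tested. Its NaB/Ctl difference was 0.44 ± 0.63. When arrays were scaled to their median instead, DHRS1 was -0.35 and DHRS12 -0.09 in NaB/Ctl, the reverse of their direction above.

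**Figure D3:**
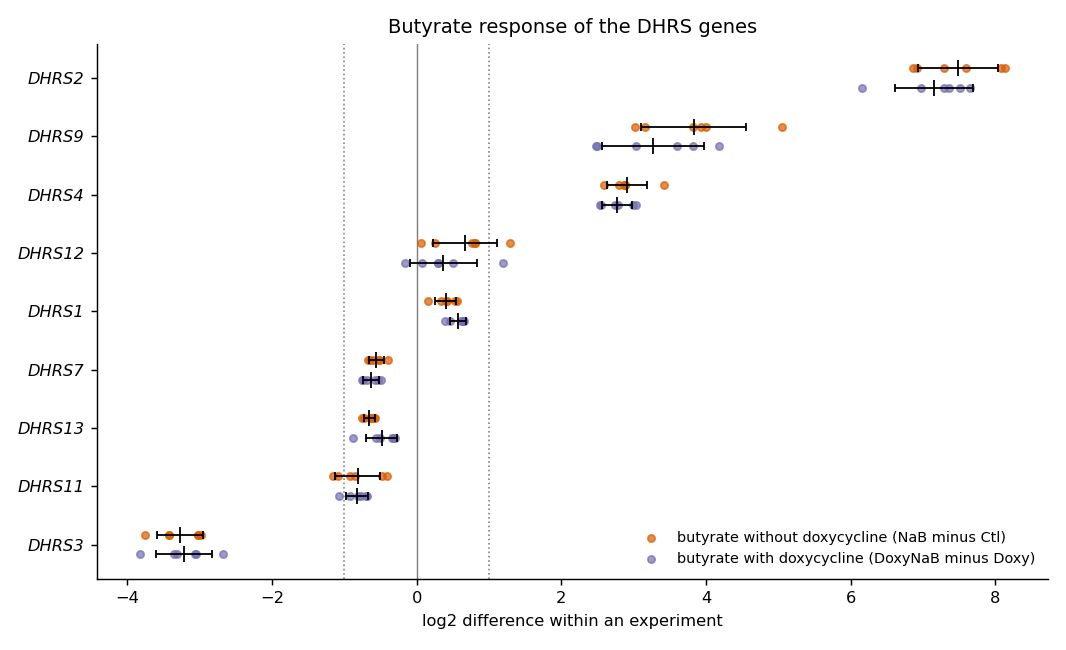
Change with butyrate (log2) for the 9 members, as points for each experiment with the mean and SD, without doxycycline (NaB/Ctl) and with it (DoxyNaB/Doxy), and dotted lines at 2-fold. Means in NaB/Ctl ran from -3.27 for DHRS3 to 7.48 for DHRS2, and those in DoxyNaB/Doxy from -3.21 to 7.15.

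Experiments 2 to 4 shared a scan date by the file headers, as did experiments 5 and 6, each experiment on its own slide. Both sets gave similar values for DHRS2 and the members past the threshold. In experiments 2 to 4, NaB/Ctl was 7.27 for DHRS2, -3.14 for DHRS3, 3.03 for the rising DHRS4 probe and 3.97 for DHRS9. In experiments 5 and 6 the same values were 7.47, -3.23, 2.88 and 3.54. For DoxyNaB/Doxy, experiments 2 to 4 gave 7.33, -3.02, 2.77 and 3.43, and experiments 5 and 6 gave 6.72, -3.20, 2.88 and 3.15, in the same order of genes. No direction changed between these scan dates. In experiment 1, the Ctl and Doxy arrays shared 1 slide and scan date and the NaB and DoxyNaB arrays another. In that experiment an effect of slide or scan date and the butyrate effect cannot be told apart.

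None of the 8 members other than DHRS2 passed the threshold for a change with doxycycline, with or without butyrate. In Doxy/Ctl, 0 of the 8 passed, where 0.0923% of all genes did. Their changes ran from -0.22 (DHRS13) to 0.31 (DHRS12), with limma adjusted p from 0.102 to 0.953. At an unadjusted p below 0.05 there were 2, DHRS1 at -0.20 and DHRS13 at -0.22, each lower in 6 of 6 experiments. The share of all genes at that unadjusted p was not counted, so the 2 are given as a description. DHRS2, described with no test since its Ctl and NaB values chose the set, was 0.26 ± 0.40, higher in 3 of 6 experiments. In DoxyNaB/NaB, 0 of the 8 passed (0.402% of all genes), and 0 reached an unadjusted p below 0.05. Changes ran from -0.28 (DHRS9) to 0.01 (DHRS12), with limma adjusted p from 0.666 to 0.989. DHRS2 was -0.07 ± 0.21 in DoxyNaB/NaB, again with no test. DHRS9 stood at -0.51 in DoxyNaB/NaB without experiment 2, and DHRS2 at 0.69 in Doxy/Ctl in experiments 5 and 6 alone.

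Whether the butyrate response differed with doxycycline was tested as the interaction, NaB/Ctl minus DoxyNaB/Doxy. Of the 8 members other than DHRS2, 0 passed at an adjusted p below 0.01, where 1.36% of all genes did, and 0 reached an unadjusted p below 0.05. Interaction values ran from -0.17 (DHRS13) to 0.56 (DHRS9), with adjusted p from 0.417 to 0.984. For DHRS2, described with no test since its NaB/Ctl values chose the set, the difference was 0.33 ± 0.46. For DHRS9 it was 0.56 (95% confidence interval -0.20 to 1.32), for DHRS3 -0.06 (-0.43 to 0.30) and for the rising DHRS4 probe 0.14 (-0.14 to 0.42). Without experiment 2 the DHRS9 interaction was 0.91. With normexp its order was reversed, the change being 1.08 in NaB/Ctl and 1.36 in DoxyNaB/Doxy. AXIN2, by comparison, had an interaction of 1.95 (adjusted p = 8.26e-08).

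**Figure D4:**
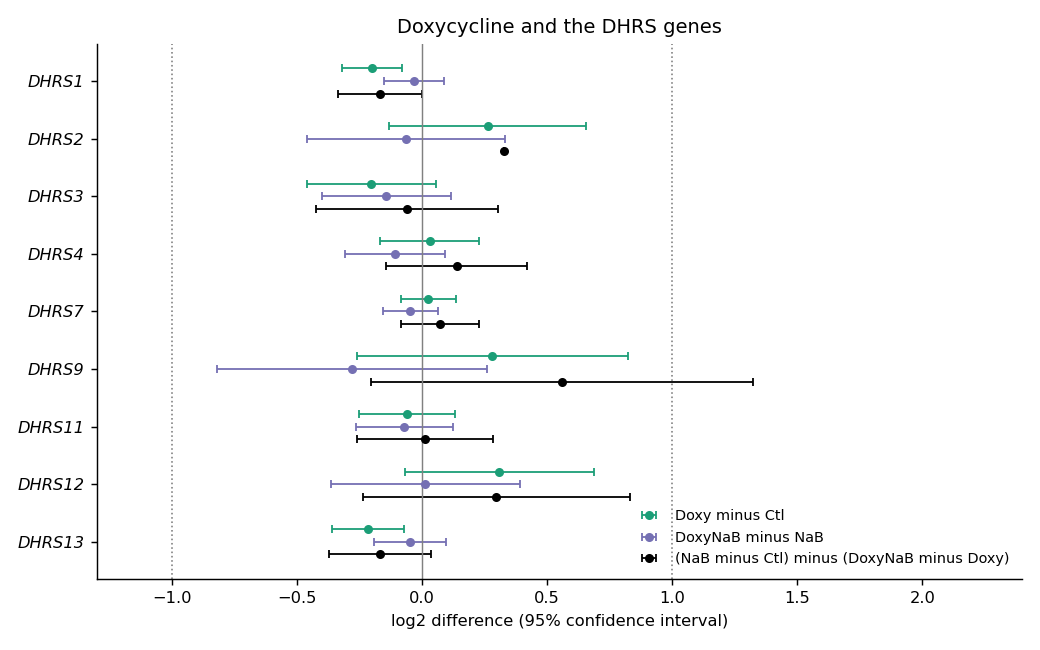
Effect of doxycycline (log2) on the 9 members without butyrate (Doxy/Ctl) and with it (DoxyNaB/NaB), and the interaction, as means with 95% confidence intervals (none for the DHRS2 interaction), DHRS4 being its rising probe. All 9 Doxy/Ctl means lay between -0.22 and 0.31, and the widest intervals belonged to DHRS9. The intervals of DHRS2 are a description, since its Ctl and NaB values chose the set.

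DHRS2, DHRS4 and DHRS1 lie close together on chromosome 14, with the rising DHRS4 probe 309.9 kb and the DHRS1 probe 645.9 kb from that of DHRS2. Probes of 33 other genes on the array lay within 500 kb of the DHRS2 probe, and 20 of these genes were tested. In NaB/Ctl, 3 of the 20 were higher and 2 lower by the threshold, beside 21% and 11.5% of all genes, and their median change was -0.08, against 0.17 over all genes. With normexp 1 was higher and 0 lower in NaB/Ctl, where all 15163 genes gave 1377 and 1185. With median scaling 1 was higher and 6 lower, against 1356 and 4936 of all genes. CARMIL3, a regulator of actin capping, was 3.17 ± 0.35 at 423.9 kb, although 3 of 6 Ctl arrays were dim. SLC22A17, a lipocalin receptor, was 1.46 ± 0.21 at -297.8 kb, and an unnamed transcript (ENST00000258869) was 1.04 ± 0.42 at -124.4 kb. BCL2L2, an inhibitor of apoptosis, was -1.09 ± 0.46, and PABPN1, which binds poly(A) tails, was -1.06 ± 0.11. The tested genes nearest to DHRS2, AP1G2 and THTPA, lay at -85 and -86 kb and changed by -0.66 ± 0.21 and -0.16 ± 0.46, short of 2-fold. PCK2, the mitochondrial form of phosphoenolpyruvate carboxykinase, at 454.9 kb, was the single neighbour with an interaction: its change was 0.05 in NaB/Ctl and -1.05 in DoxyNaB/Doxy (interaction 1.10, adjusted p = 0.000187). With median scaling 0 of the 20 had an interaction. In Doxy/Ctl 1 of the 20 was higher and 0 lower by the threshold, and in DoxyNaB/NaB 0 were higher and 0 lower.

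**Figure D5:**
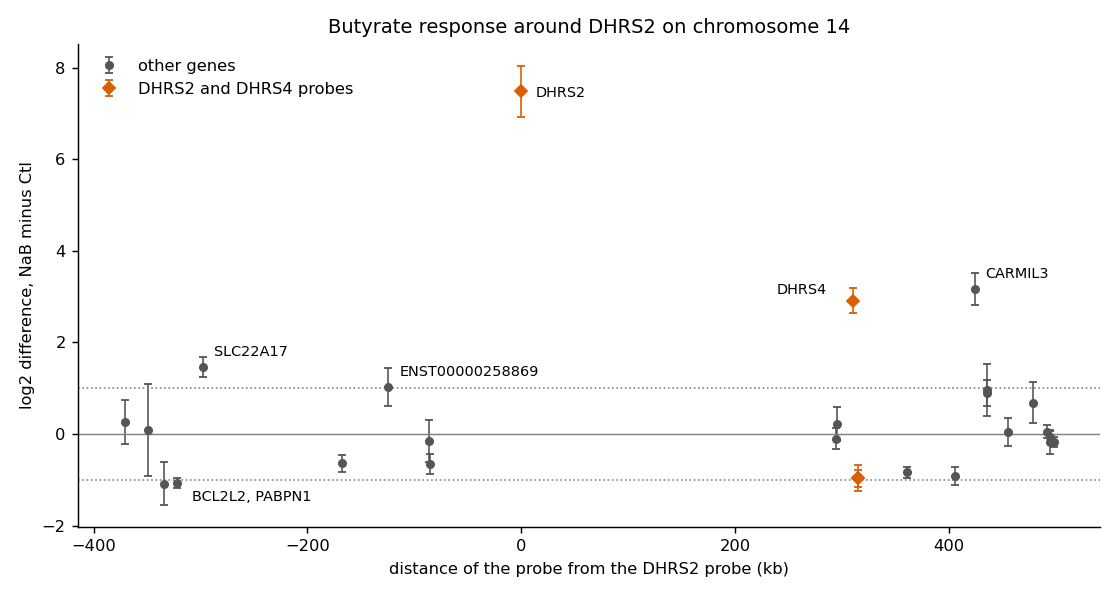
Change in NaB/Ctl (log2, mean with SD over 6 experiments) of the tested probes within 500 kb of the DHRS2 probe, against their distance from it in kb, with dotted lines at 2-fold. DHRS2 at 7.48 stands above all of its neighbours, of which CARMIL3 at 3.17 and the DHRS4 probe at 2.91 are the next highest.

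Relatives of the DHRS genes moved in both directions. Of 8 genes that carry or once carried a DHRS name, 6 were tested, with 1 higher and 1 lower in both NaB/Ctl and DoxyNaB/Doxy, beside the 32.4% and 31.2% of all genes called. With median scaling 0 were higher and 3 lower in both, DHRSX being at 0.98 in NaB/Ctl. Of all 15163 genes, that scaling called 1356 higher and 4936 lower in NaB/Ctl, and 1459 and 4185 in DoxyNaB/Doxy. DHRSX rose by 1.73 ± 0.25 (3.32-fold) in NaB/Ctl and by 1.51 in DoxyNaB/Doxy. HSD17B11, a dehydrogenase of lipid droplets, fell, with changes of -1.29 ± 0.23 and -1.48. DHRS4L1, DHRS4L2, DHRS7B (-0.19) and HSD17B14 (-0.06) did not pass in NaB/Ctl.

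Among 37 other short-chain dehydrogenases/reductases, 28 were tested, with 2 higher and 4 lower in NaB/Ctl and 3 higher and 4 lower in DoxyNaB/Doxy, beside the 32.4% and 31.2% of all genes called. With normexp there were 1 higher and 2 lower in NaB/Ctl, where all 15163 genes gave 1377 and 1185. In DoxyNaB/Doxy there were 0 higher and 1 lower, against 1809 and 1276. With median scaling there were 1 higher and 11 lower in NaB/Ctl, against 1356 and 4936 of all genes. In DoxyNaB/Doxy there were 1 higher and 7 lower, against 1459 and 4185. The median change of the 28 tested genes in NaB/Ctl was -0.07. HSD17B3, which makes testosterone, was higher by 2.59 ± 0.86, although dim on 3 of 6 Ctl arrays and at 0.81 with normexp (adjusted p = 0.0810). HSD17B7, an enzyme of oestradiol and cholesterol synthesis, was higher by 1.07 ± 0.20. SPR, the sepiapterin reductase of tetrahydrobiopterin synthesis, changed by -1.83 ± 0.12. BDH1, which interconverts ketone bodies, was 2.83-fold lower, and HSD17B1, which makes oestradiol, changed by -1.02 ± 0.52, but with normexp by -0.66 (adjusted p = 0.0112).

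The retinoid pathway, in which DHRS3, DHRS4 and DHRS9 act, was followed with 32 further genes of retinoid transport, metabolism and reception, of which 18 were tested. In NaB/Ctl 4 were higher and 5 lower (21% and 11.5% of all genes), and in DoxyNaB/Doxy 3 were higher and 5 lower, with a median of 0.07 in NaB/Ctl. RARG, a retinoic acid receptor, changed by -2.37 ± 0.21. ALDH1A3, which oxidises retinal to retinoic acid, changed by -2.15 ± 0.17. LRAT, which esterifies retinol, was higher by 2.37 ± 0.84, and STRA6, the receptor for retinol uptake, by 1.94 ± 0.71. The higher genes were dim: STRA6 did not clear background on 3 of 6 Ctl arrays and stood at 0.30 with normexp (adjusted p = 0.370). In NaB/Ctl 0 of the 18 were higher with normexp or with quantile normalization, where 3 and 6 were lower. Of all 15163 genes, normexp called 1377 higher and 1185 lower in NaB/Ctl, and quantile normalization 2076 and 2443.

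The expression pattern of DHRS2 over the 24 arrays, with levels centred on the mean of each experiment, was shared by many probes, which all have the same arrays and treatments in common. Pearson's r with DHRS2 was above 0.95 for 2591 of 16346 probes compared. The genes most like it were VGF (r = 0.999, NaB/Ctl 5.31), EFR3B (0.998, 5.52), RFPL4A (0.998, 7.20), ZNF17 (0.998, 1.45) and SSBP2 (0.998, 5.00). Among the members, r was 0.990 for the rising DHRS4 probe, 0.978 for DHRS9, 0.913 for DHRS1 and 0.665 for DHRS12. It was -0.995 for DHRS3, -0.978 for DHRS7, -0.961 for DHRS11 and -0.933 for DHRS13. No share over all probes is given for negative r. The DHRS4 probes A_33_P3383431 and A_23_P162982 had r of -0.81 and -0.83 with the rising DHRS4 probe, on levels not centred. Each r with DHRS2 rests on the values that chose the set and is a description.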

How the data were processed

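HCT-116 cells under 4 treatments in 6 experiments were profiled on 24 one-colour Agilent arrays. The deposited files hold spot intensities that the authors obtained with Agilent Feature Extraction (9.5.3.1 per the file headers), detrended and with surrogates for dim spots, not scaled between arrays. Control spots and outlier spots (359 to 795 per array) were left out and spots of a probe averaged. Values are log2 intensity minus log2 of the array's 75th percentile. Probes entered the test if some treatment had each of its 6 arrays well above background. Its signal over background and the 6 arrays per group limit the precision. R 4.3.3 and limma 3.58.1 (lmFit, eBayes) fitted 4 treatments with the experiment as block, since 35 of 36 same-experiment pairs of arrays deviated together (r above 0.1) and the lowest was -0.217. Benjamini-Hochberg adjustment covered 18984 probes, and the fit was tested on simulated data. The tested probe of highest mean level represented a gene. Named genes were all members, TCF7L2, AXIN2, from each list up to 5 called in NaB/Ctl with the largest change in 6 of 6 experiments, and the 5 most like DHRS2. A gene that this rule names is not reported here. AP1G2, THTPA, PCK2, the markers, DHRS4-AS1 and list genes that were not called are named outside this rule. Members, lists and motifs were chosen with earlier results of these data known. The alternatives were other scalings, filters, blocks, thresholds and probe rules, and leaving out arrays. Sequences were searched in Python 3.11.15.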

Additional observations from a re-analysis of the deposited data

Results flagged for a closer look

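In 5 of 44 groups of 6 arrays, a single array stood apart from the rest of its treatment, and each time it was an array of experiment 1. Chance would flag about 1 in 20 independent groups, but these groups are not independent, since the probes share the same 24 arrays. The count is therefore a description, as is the flag for DHRS2, whose NaB values chose the set. The gap to the nearest array divided by the range of the group was 0.826 for DHRS1 in Doxy (level 0.64 against 0.25 for the nearest), 0.665 for DHRS2 in NaB (6.90 against 6.27) and 0.685 for the DHRS4 probe A_33_P3383431 in Doxy (1.68 against 1.16). For DHRS11 it was 0.769 in Ctl (0.31 against -0.43) and 0.767 in Doxy (0.11 against -0.45). The Ctl and Doxy arrays of that experiment were on another slide, with another scan date, than its NaB and DoxyNaB arrays. Without experiment 1, the same members as before passed the threshold in NaB/Ctl and DoxyNaB/Doxy.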

How the results depend on the processing

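DHRS3 kept its call in both butyrate comparisons under every alternative run. Leaving out each experiment in turn gave 3 to 3 members changed in NaB/Ctl and in DoxyNaB/Doxy, and 0 to 0 in the other comparisons and the interaction. Scaling by array medians, with signals below 5 set to 5, shifted all genes by a median of -0.58 in NaB/Ctl and -0.45 in DoxyNaB/Doxy (0.17 and 0.11 otherwise). It turned DHRS1 (-0.35) and DHRS12 (-0.086) in NaB/Ctl and DHRS12 (-0.19) in DoxyNaB/Doxy, and gave 6 members changed in each. The split of all genes in NaB/Ctl was 3183 higher to 1737 lower, but 2076 to 2443 with quantile and 1356 to 4936 with median scaling. In DoxyNaB/Doxy the split was 2834 to 1890, but 2032 to 2469 with quantile and 1459 to 4185 with median scaling. At a fold above 1.5, 6 of the 8 members passed in NaB/Ctl and 5 in DoxyNaB/Doxy, with no count over all genes at that fold. At any fold, an adjusted p below 0.01 held for 69.6% and 68.4% of all genes. The count was 2 in NaB/Ctl with normexp, which lost DHRS9, 2 with the mean over probes, which lost DHRS4, and 2 with a filter on all 24 arrays, which left DHRS9 out. Without the replicate block the counts were 3 and 3, and the methods' t-test also gave 3 and 3 with and without Benjamini-Hochberg adjustment. The adjusted p of DHRS12 in NaB/Ctl was 0.0147 without experiment 4 and 0.0140 without experiment 6. At an unadjusted p below 0.05, that t-test picked 4 members in Doxy/Ctl and 1 for the interaction, with no count over all genes at that p. Doxycycline counts stayed at 0 in all alternatives, with the lowest adjusted p for Doxy/Ctl 0.0391 (DHRS1, slide as block) and 0.0305 (DHRS13, without the arrays of high negative controls). With the DHRS4 probe of highest Ctl level, DHRS4 was -0.96 and -1.01, the reverse of its direction. That choice, the 75th percentile over probes and the other DHRS4 probes were tried after seeing the data.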
